A study of Bos taurus with 9 samples.

Results

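The insulin-like growth factor (IGF) system was described in cultured bovine endometrial cells through 10 genes, the ligands IGF1 and IGF2, the receptors IGF1R and IGF2R, and the binding proteins IGFBP1 to IGFBP6. The members were chosen by gene symbol and all 10 were present among the 17162 genes of the expression table. RNA was sequenced from 9 libraries of cells that the labels call primary bovine endometrial epithelial cells, wild type in genotype, 3 libraries in each of 3 groups. CON cells were untreated, GA cells received 1 nM estradiol (E2) and 100 nM progesterone (P4), and GB cells received the same E2 and P4 for 12 h and then 100 ng/mL interferon tau (IFNT) for a further 12 h. All cells were grown in DMEM/F12 with FBS, which itself carries growth factors. The sources used here do not give separate collection times for CON and GA, so culture time and treatment cannot be told apart in any comparison. They describe a change to fresh medium for the treated groups and do not say if CON medium was changed. A change of medium and treatment therefore cannot be told apart in the comparisons with CON. The sources also do not say whether the replicates came from different cows, and the p-values then measure the spread between these dishes only.

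IGF1 and IGF2 are secreted peptides that act on growth, survival and metabolism, mainly through IGF1R, a receptor tyrosine kinase. IGF2R, the cation-independent mannose 6-phosphate receptor, takes up IGF2 for breakdown and sorts lysosomal enzymes. The binding proteins hold the ligands outside the cell with high affinity and are cut by proteases that release them. In the uterus of ruminants these proteins are made by the endometrium and act on both the endometrium and the conceptus, and IFNT is the signal by which the conceptus is recognised.

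Expression is given as FPKM (fragments scaled to the length of the transcript and to the mapped reads of the library), a level per length that allows genes to be set side by side. Differences between groups were tested with limma on log2(FPKM + 0.5), over the 12578 genes with a mean of at least 0.5 FPKM, and log2FC below is on that scale. Each adjusted p is Benjamini-Hochberg adjusted over all of these genes. In the text a gene rose or fell when its adjusted p was under 0.05, and a DEG also had a log2FC beyond 1 in size. Of the members, 9 could be tested, and IGFBP1 was below the filter.

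The label of the cells was checked against marker genes before the results. The 6 epithelial markers (KRT7, KRT8, KRT18, KRT19, CDH1 and CLDN4) all had a mean under 0.5 FPKM. KRT18, the most abundant of them, was at 0.250, 0.410 and 0.160 FPKM in CON, 0.480, 0.230 and 0.670 in GA and 0.160, 0.640 and 0.250 in GB. The summed level of the 6 was 0.857 ± 0.590 FPKM in CON (SD, n = 3), 1.30 ± 0.455 in GA and 1.39 ± 0.475 in GB. By contrast the 9 stromal fibroblast markers summed to 17153 ± 321 FPKM in CON, 17173 ± 197 in GA and 15307 ± 64.3 in GB, with VIM, an intermediate filament gene of mesenchymal cells, as the most abundant. The 4 smooth muscle markers summed to 3780 ± 345, 3407 ± 174 and 3034 ± 77.1 FPKM in the same order, led by ACTA2. Endothelial markers summed to at most 3.34 FPKM in a library, with CDH5 leading and PECAM1, VWF and KDR under a mean of 0.5. The 4 immune cell markers summed to 20.8 to 26.7 FPKM, most of it CD14, while CSF1R and CD79A were under 0.5. The libraries thus carried the transcripts of the stromal list and almost none of the epithelial list, which goes against the label, and they are called endometrial cells here. The study typed its cultures by immunofluorescence for cytokeratin protein and reported them as positive, which goes with the label. That staining was not analysed here.

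**Figure D1:**
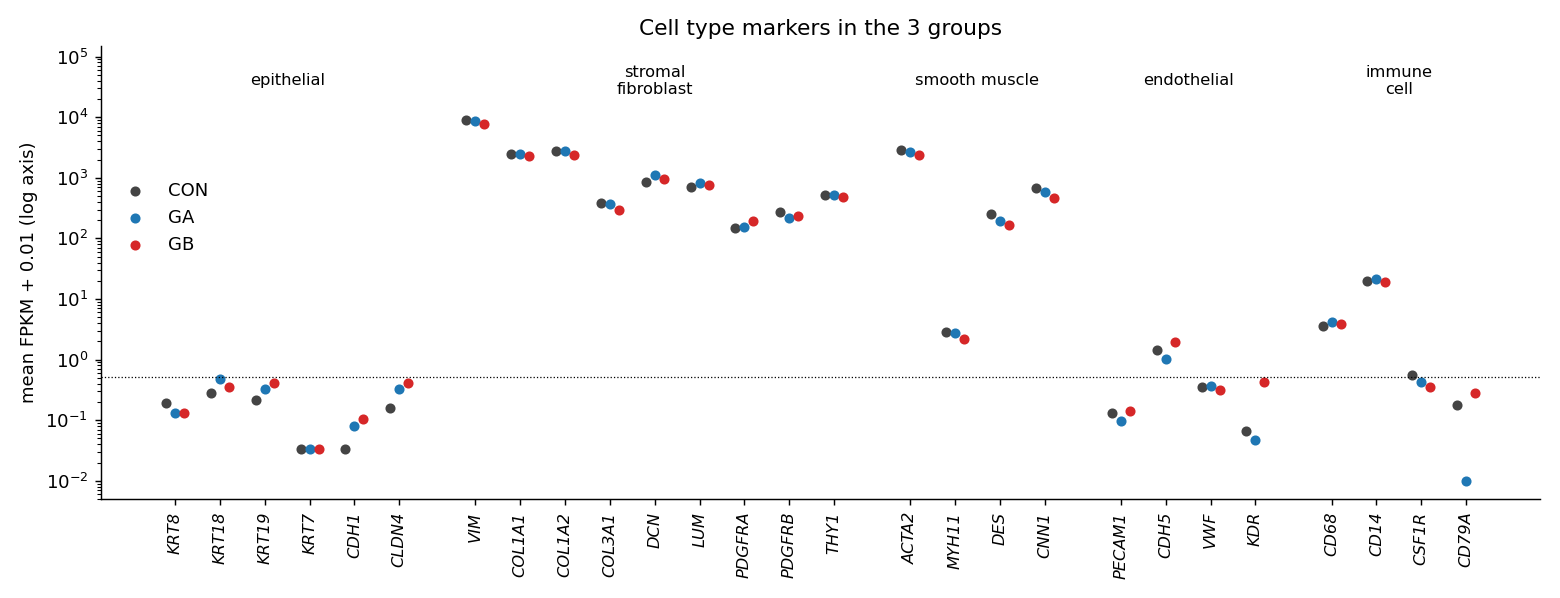
Mean FPKM of each marker gene in CON, GA and GB (3 libraries each), plus 0.01 so that zeros can be drawn on the log axis. The dotted line marks a mean of 0.5 FPKM, and all 6 epithelial markers averaged over the 9 libraries lie under it, whereas VIM was at 9082 FPKM in CON.

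The IGF system of these cells was dominated by binding proteins. In CON the order of mean levels was IGFBP6 (1107 ± 92.4 FPKM, SD, n = 3), IGFBP4 (661 ± 43.6), IGFBP2 (205 ± 18.3), IGF2R (60.7 ± 0.366), IGF1R (43.9 ± 2.98), IGFBP3 (31.2 ± 4.15), IGFBP5 (9.11 ± 1.78), IGF2 (4.99 ± 1.91), IGF1 (2.45 ± 0.984) and IGFBP1 (0.167 ± 0.00577). IGFBP6 ranked 207 of all genes in the table by its CON mean, and IGFBP4 ranked 363. The libraries of neighbouring genes in this order did not overlap in CON, except those of IGF2 and IGF1. In GA the order was the same and only IGFBP5 and IGF2 overlapped. In GB, IGFBP3 stood next after IGFBP2, and its libraries overlapped those of IGF2R, which in turn overlapped those of IGF1R. IGF2 and IGFBP5 changed places in GB, and their libraries overlapped too.

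**Figure D2:**
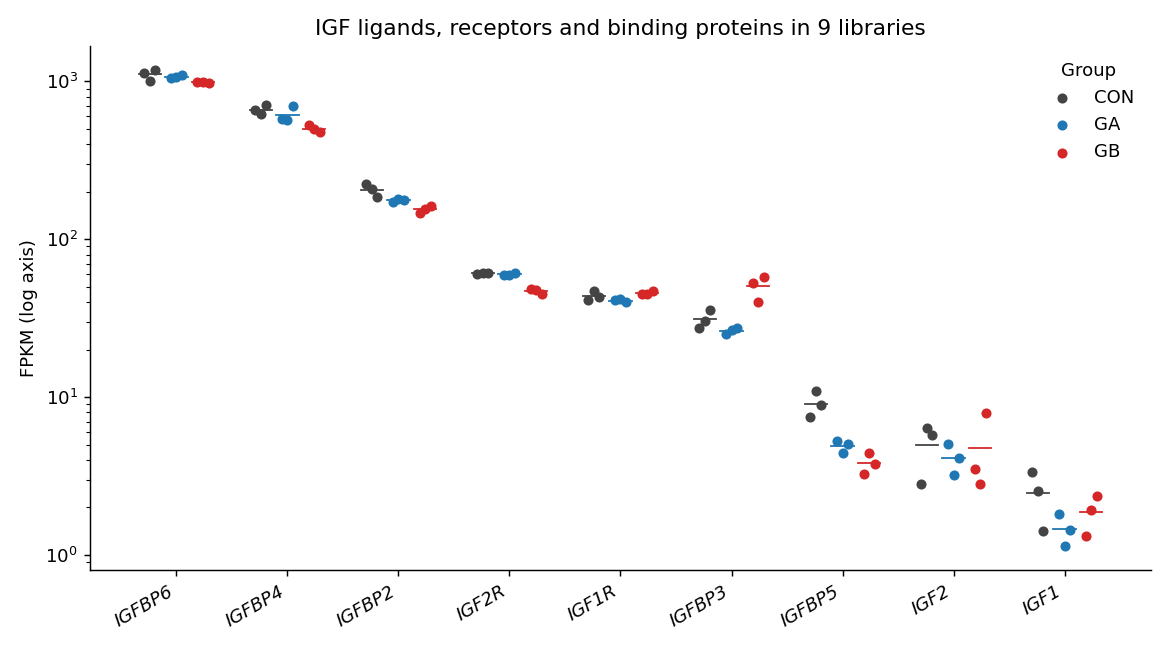
FPKM on a log axis of the 9 members above the filter, with a point for each library, a bar for the mean of each group and colours for CON, GA and GB. Levels run from IGFBP6, at 978 to 1184 FPKM, down to IGF1, at 1.14 to 3.38 FPKM.

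In GB vs. CON, 5 of the 9 tested members passed the adjusted p (1 higher, 4 lower), a share to be read beside the 33.5% of all tested genes that passed (16.2% higher, 17.3% lower). The riser was IGFBP3, and the fallers were IGFBP2, IGFBP4, IGFBP5 and IGF2R. IGFBP5 was a DEG (lower), and DEGs made up 4.01% of all tested genes in this comparison (2.94% higher, 1.07% lower). In GB vs. GA, 3 of the 9 passed, IGFBP3 higher and IGFBP4 and IGF2R lower, beside 29.0% of all tested genes (9.87% higher, 19.2% lower). None of the members was a DEG there with limma, beside 3.64% of all tested genes (2.66% higher, 0.978% lower), and 5 had an unadjusted p under 0.05, beside 5029 of all 12578 tested genes. In GA vs. CON limma passed 0 of the 9 members, beside 0.453% of all tested genes passing (0.246% higher, 0.207% lower) and 0.0716% called as DEGs (0.0318% higher, 0.0398% lower). At an unadjusted p under 0.05 were 2 of the 9 (IGFBP2 and IGFBP5), beside 2430 of all 12578 tested genes. The libraries of the groups did not overlap for 6 of the 9 members when GB was set against CON, 6 when it was set against GA and 2 in GA vs. CON, and over all tested genes for 46.1%, 46.8% and 24.7%. The median log2FC of the 9 was −0.28 for GB vs. CON, −0.11 for GB vs. GA and −0.20 for GA vs. CON, where the medians over all tested genes were −0.016, −0.075 and 0.061. The 3 comparisons share libraries, and in bulk RNA fewer cells of a type and less RNA per cell cannot be told apart.

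**Figure D3:**
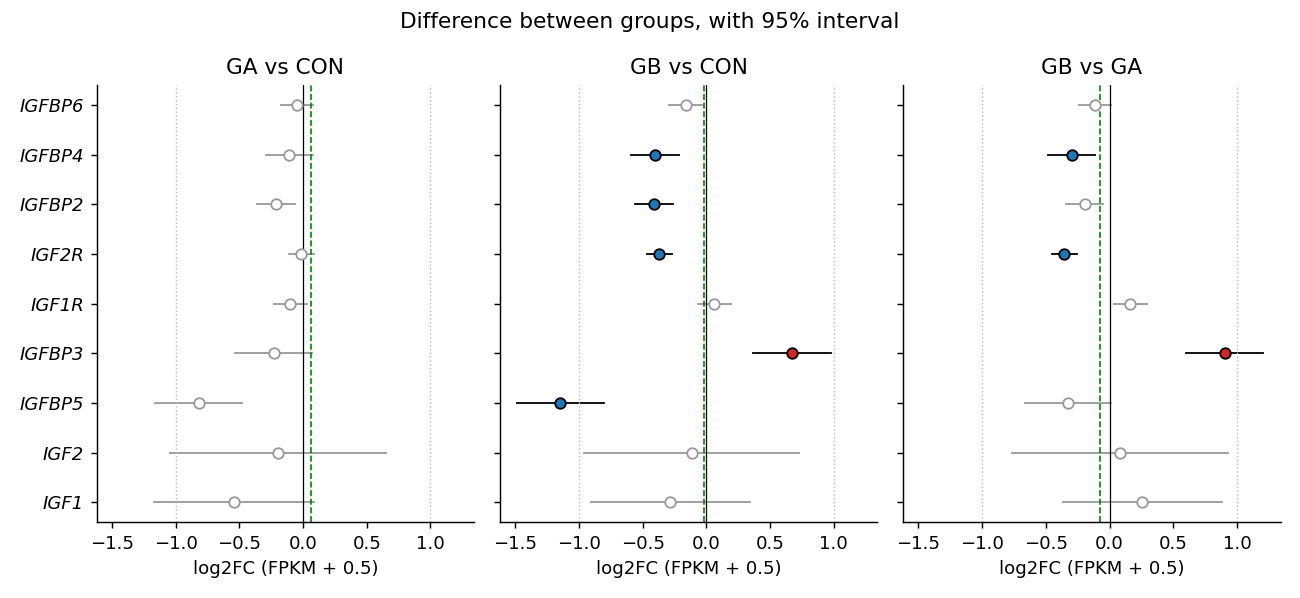
The log2FC on the log2(FPKM + 0.5) scale (x axis) of each tested member in the 3 comparisons, with its 95% interval from limma. Red and blue points rose and fell at an adjusted p under 0.05, white points did not pass, dotted lines mark a log2FC of 1 in size, and the green dashed line is the median of all tested genes. IGFBP3 alone is red, and IGFBP5 in GB vs. CON lies beyond −1.

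Both ligands were weakly expressed, and no difference between groups was resolved for either. IGF1 was at 3.38, 2.56 and 1.42 FPKM in CON, 1.81, 1.14 and 1.45 in GA and 1.32, 1.93 and 2.36 in GB. IGF2, the ligand of fetal and placental growth, was at 2.81, 6.40 and 5.76 FPKM in CON, 5.07, 3.19 and 4.12 in GA and 3.53, 2.82 and 7.92 in GB. The groups overlapped for both genes in every comparison. The 95% interval of the log2FC in GB vs. CON ran from −0.91 to 0.34 for IGF1 and from −0.96 to 0.73 for IGF2. Added together, IGF1 and IGF2 came to 7.44 ± 1.404 FPKM in CON (SD, n = 3), to 5.59 ± 1.28 in GA and to 6.63 ± 3.16 in GB. In the RefSeq gene table of assembly ARS-UCD2.0, IGF2 lies next to INS, the insulin gene, and overlaps the microRNA gene MIR483, and IGF1 overlaps the uncharacterised gene LOC112446717.

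Of the receptors IGF2R fell in GB, and IGF1R passed in no comparison. IGF2R was at 60.3, 61.0 and 60.9 FPKM in CON, 59.6, 59.5 and 61.4 in GA and 48.3, 47.4 and 45.2 in GB. All 3 GB libraries lay below the 6 others, and CON and GA overlapped. IGF2R fell by 22.7% in GB vs. CON (log2FC −0.37, SE 0.043, adjusted p = 2.098e-04, limma) and by 22.0% in GB vs. GA (log2FC −0.36, adjusted p = 3.121e-04). Its log2FC in GA vs. CON was −0.013, with a 95% interval of −0.11 to 0.084. The GB vs. CON call was lost with the GC content of each library and the replicate block together (adjusted p = 0.189, limma). Apart from libraries left out, the alternatives gave a GB vs. CON log2FC of −0.42 to −0.34. The RefSeq table places the noncoding gene AIRN across IGF2R, and although the library kit was directional, the sources used here do not say if the counting used strand, so it is not known if reads of the pair were kept apart.

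The levels of IGF1R, the main signalling receptor, were 41.2, 47.1 and 43.3 FPKM in CON, 41.0, 41.7 and 39.8 in GA and 45.3, 44.9 and 47.3 in GB. GB lay above GA in every library and overlapped CON. The log2FC of IGF1R was 0.16 in GB vs. GA (SE 0.057, adjusted p = 0.0591, limma), which missed the threshold, and 0.064 in GB vs. CON (95% interval −0.065 to 0.19). With median-of-ratios factors in place of the deposited scaling the GB vs. GA value was 0.24 (adjusted p = 0.0232, same test), so this call depends on the scaling. It also passed with TPM (adjusted p = 0.0365), in a fit of only the 2 groups (adjusted p = 0.0298), with GC content without and with the replicate block (adjusted p = 0.0309 and 0.0382), and without CON1 (adjusted p = 0.0466) or CON2 (adjusted p = 0.0242). PGPEP1L and 2 further genes overlap IGF1R in the RefSeq table, and the limit on strand stated for IGF2R holds here too. The ratio of IGF2R to IGF1R within a library ran from 1.30 to 1.46 in CON libraries, from 1.43 to 1.54 in GA libraries and from 0.957 to 1.07 in GB libraries, so that the 2 receptor transcripts were closest in level in GB.

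Among the binding proteins IGFBP3, the main carrier of IGFs in blood and a protein long studied in ruminant uterus, was the member that rose. It was at 27.5, 30.4 and 35.7 FPKM in CON, 25.0, 26.7 and 27.6 in GA and 52.8, 40.3 and 58.1 in GB. All GB libraries were above all CON and GA libraries, and CON and GA overlapped at their edge. The mean in GB was 1.91 times that in GA (log2FC 0.90, SE 0.13, 95% interval 0.60 to 1.21, adjusted p = 0.00105, limma) and 1.61 times that in CON (log2FC 0.67, adjusted p = 0.00452). Of the GB libraries GB2 was the lowest, and without it the GB vs. GA log2FC was 1.06, past the DEG threshold. In GA vs. CON the log2FC was −0.23 (95% interval −0.53 to 0.074). With the GC content of the reads of each library as a covariate the rise in GB vs. CON did not pass (log2FC 0.56, adjusted p = 0.233, same test), whereas that in GB vs. GA did (log2FC 0.90, adjusted p = 0.00205).

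IGFBP5, a binding protein that attaches to extracellular matrix, had the lowest log2FC of the members. It was at 7.46, 11.0 and 8.86 FPKM in CON, 5.27, 4.40 and 5.02 in GA and 3.28, 4.40 and 3.78 in GB. CON lay above both treated groups in every library, and GA and GB touched at 4.40 FPKM. In GB vs. CON it fell by 58.1%, with a log2FC of −1.14 (SE 0.15, 95% interval −1.49 to −0.80, adjusted p = 4.506e-04, limma). In GA vs. CON the log2FC was −0.82 (adjusted p = 0.0614, same test), just short of the threshold, and it passed with median-of-ratios factors (log2FC −0.87, adjusted p = 0.0445). Apart from libraries left out, the alternatives gave a GA vs. CON log2FC of −0.90 to −0.47, and the adjusted p reached 0.811 (limma). In GB vs. GA the log2FC was −0.33 (95% interval −0.67 to 0.015), which did not pass. The GB vs. CON call was lost with the GC content of the reads as a covariate (log2FC −0.87, adjusted p = 0.0952). This content was higher in each CON library than in every GA and GB library, so that the covariate and the comparison with CON cannot be fully told apart.

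IGFBP3 rose and IGFBP5 fell in GB vs. CON, whereas in GA vs. CON both had a negative log2FC and neither passed. In GB vs. GA IGFBP3 rose and IGFBP5 did not pass. Their ratio within a library restates these differences and is not a separate test. IGFBP3 stood at 2.77 to 4.03 times the FPKM of IGFBP5 in CON, 4.75 to 6.06 times in GA and 9.16 to 16.1 times in GB. In the RefSeq table each has another member as its nearest protein-coding neighbour, IGFBP1 beside IGFBP3 and IGFBP2 beside IGFBP5.

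**Figure D4:**
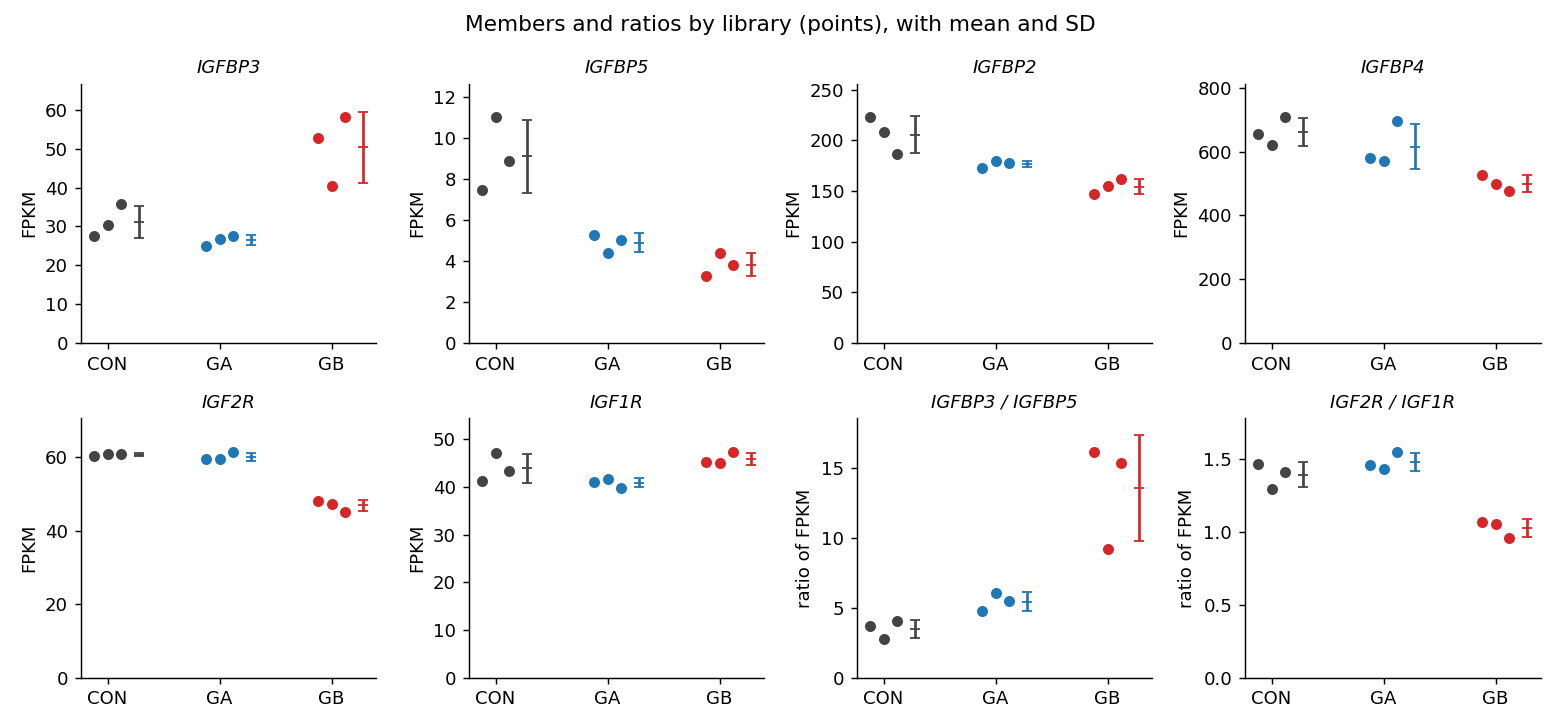
FPKM of 6 members and 2 ratios of FPKM (y axes from 0) in each library of CON, GA and GB, with the mean and SD of the 3 libraries beside the points. IGFBP3 and the IGFBP3 to IGFBP5 ratio are highest in the GB libraries, IGF2R and IGFBP4 are lowest there, and IGF1R stays between 39.8 and 47.3 FPKM.

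IGFBP2 and IGFBP4 were both lower in GB than in CON. IGFBP2, which can also bind integrins, was at 222, 208 and 186 FPKM in CON, 173, 179 and 178 in GA and 147, 155 and 161 in GB. Its groups did not overlap in any comparison. It fell by 24.9% in GB vs. CON (log2FC −0.41, SE 0.065, adjusted p = 0.00136, limma), while −0.21 in GA vs. CON (adjusted p = 0.142) and −0.19 in GB vs. GA (adjusted p = 0.0509, same test) did not pass. The GB vs. GA value passed without CON1 (adjusted p = 0.0306) or CON3 (adjusted p = 0.0190), in a fit of only the 2 groups (adjusted p = 0.0148), with quantile normalization (adjusted p = 0.0362) and with a filter at 1 FPKM (adjusted p = 0.0494). With the GC content covariate the GB vs. CON value was −0.44 and did not pass either (adjusted p = 0.0658).

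IGFBP4, known as an inhibitor of IGF action and as the substrate of PAPPA, was at 655, 620 and 707 FPKM in CON, 579, 570 and 696 in GA and 526, 497 and 475 in GB. GB lay below every other library, and GA3 reached into the range of CON. IGFBP4 fell by 24.4% in GB vs. CON (log2FC −0.40, SE 0.082, adjusted p = 0.00494, limma) and by 18.8% in GB vs. GA (log2FC −0.30, adjusted p = 0.0241). The GB vs. GA call was lost without GA3 (log2FC −0.20, adjusted p = 0.0590), GB2 (−0.29, adjusted p = 0.0630) or GB3 (−0.26, adjusted p = 0.0796). That in GB vs. CON was lost with the GC content covariate and the replicate block together (adjusted p = 0.296, limma). Apart from libraries left out, the alternatives gave a GB vs. CON log2FC of −0.58 to −0.39.

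IGFBP6, which prefers IGF2 over IGF1, was the most abundant member. It was at 1132, 1004 and 1184 FPKM in CON, 1044, 1069 and 1093 in GA and 991, 992 and 978 in GB. GB lay below the other libraries, by a log2FC of −0.16 in GB vs. CON (95% interval −0.29 to −0.034, adjusted p = 0.0541) and −0.11 in GB vs. GA (adjusted p = 0.166, limma), and neither passed. Without CON2, the lowest CON library, the GB vs. CON value was −0.23 and passed (adjusted p = 0.00159, same test), as did that in GB vs. GA (adjusted p = 0.0218). The GB vs. GA value also passed in a fit of only the 2 groups and with the GC content covariate. Apart from libraries left out, the alternatives gave a GB vs. GA log2FC of −0.13 to −0.012. With libraries left out included, the adjusted p there ran from 0.0204 to 0.890 (limma). The GB vs. CON value also passed with TPM (adjusted p = 0.0358), median-of-ratios factors (adjusted p = 0.0331) and the GC content covariate (log2FC −0.37, adjusted p = 0.0167).

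IGFBP1, a widely used marker of endometrial function in cattle and sheep, was scarcely detected. It was listed at 0.170, 0.170 and 0.160 FPKM in CON, at 0 in each GA library, and at 0, 0.390 and 0 in GB. The values are too low for a comparison, and no fold is given.

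Summed over IGFBP1 to IGFBP6, the binding protein transcripts came to 2045, 1874 and 2122 FPKM in CON, 1826, 1849 and 2000 in GA and 1719, 1689 and 1676 in GB. The sum in GB was 0.842 times that in CON, and all 3 GB libraries lay below the 6 others. IGFBP6 made up 53.6% to 58.7% of the sum, IGFBP4 28.3% to 34.8% and IGFBP2 8.53% to 11.1% over the 9 libraries. IGFBP3 took between 1.35% and 1.68% in CON, between 1.37% and 1.44% in GA and between 2.39% and 3.46% in GB. The sum of the binding proteins was 163 to 427 times the sum of the ligands in a library, a range set mostly by the scatter of IGF1 and IGF2. Of the stromal and smooth muscle markers 4 of 9 and 3 of 4 fell in GB vs. CON, beside 17.3% of all tested genes. The stromal marker PDGFRA rose, DCN and LUM had log2FC of 0.16 and 0.093 with every GB library above CON but did not pass, and none of either list was at 0. Their part in the lower binding protein transcripts was not tested.

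Of the members IGFBP5 was the only DEG, and the tested genes with the most similar pattern were sought for it. Likeness was the root mean square difference over the 9 libraries between log2(FPKM + 0.5) values taken relative to the CON mean. KCNG1, a potassium channel subunit (0.18), XIRP1, an actin-binding protein of muscle (0.24), and THRB, a thyroid hormone receptor (0.25), came closest. KCNG1 had means of 3.56, 2.17 and 1.29 FPKM in CON, GA and GB, and THRB of 2.11, 1.23 and 0.707. XIRP1 was at 5.09, 3.27 and 1.72 FPKM in the same groups.

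The other genes of the pathway were taken as 6 lists, of which 91 of 93 genes were in the table and 87 could be tested. In GB vs. CON 11 of the 87 rose and 23 fell, beside 16.2% and 17.3% of all tested genes, and 2 were DEGs, both higher, beside 2.94%. In GB vs. GA 8 rose and 28 fell, beside 9.87% and 19.2% of all tested genes, with 2 DEGs, both higher, beside 2.66%. These shares of all tested genes are the background for the counts of each list that follows. In GA vs. CON limma passed 1 gene (PLAU, lower) and called 0 DEGs, beside 0.453% and 0.0716% of all tested genes, while 19 had an unadjusted p under 0.05, beside 2430 of all 12578 tested genes. The median log2FC of the 87 was −0.094 for GB vs. CON and −0.087 for GB vs. GA, against −0.016 and −0.075 over all tested genes.

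**Figure D5:**
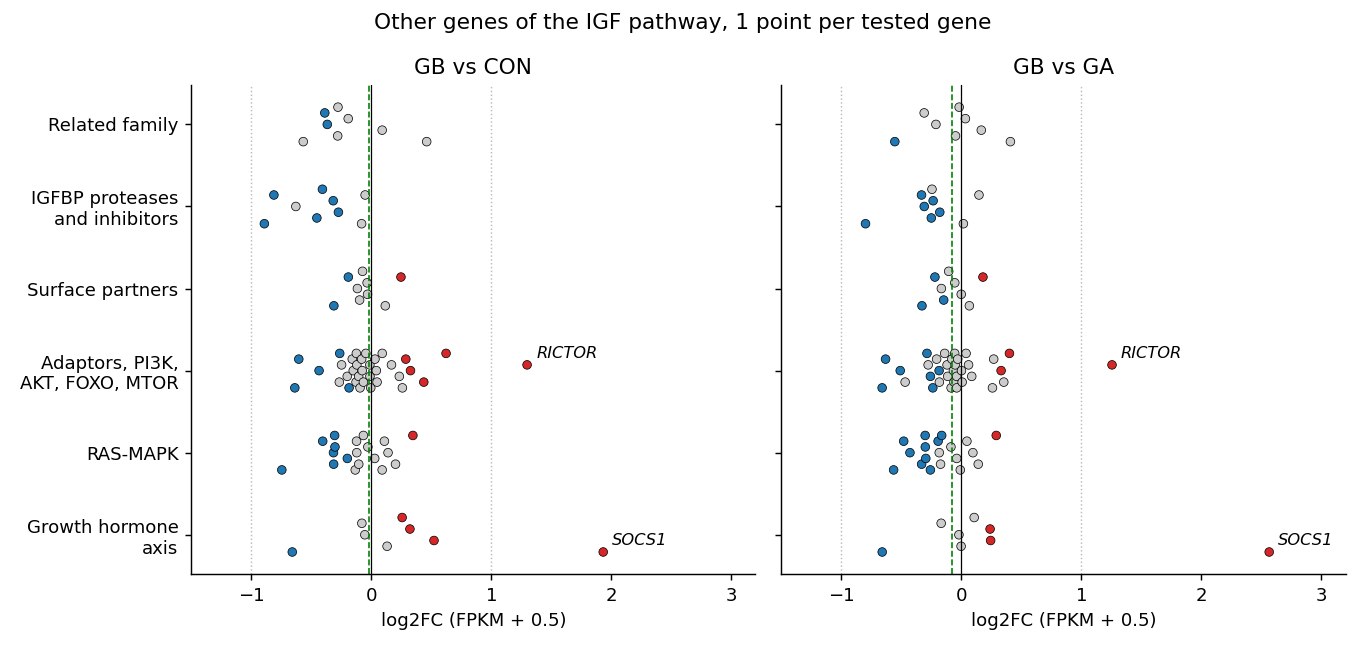
The log2FC on the log2(FPKM + 0.5) scale (x axis) for GB against CON and GB against GA, with a point for each tested gene in the 6 lists. Red and blue points rose and fell at an adjusted p under 0.05, grey points did not pass, dotted lines mark a log2FC of 1 in size and the green dashed line the median of all tested genes. RICTOR and SOCS1, which are named, were the only genes of these lists beyond 1.

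Genes related to the members by family or name were mostly without a resolved difference. IGFBP7, a secreted protein that binds IGFs weakly, was as abundant as the main binding proteins, at 1044, 1046 and 889 FPKM in CON, 759, 774 and 801 in GA and 705, 712 and 903 in GB. It fell in GB vs. CON (log2FC −0.37, adjusted p = 0.0190, limma), although GB3 reached into the range of CON, and −0.35 in GA vs. CON did not pass (adjusted p = 0.129). INSR, the insulin receptor, which also pairs with IGF1R into hybrid receptors, was at 4.08, 4.85 and 4.34 FPKM in CON, 5.23, 4.89 and 4.93 in GA and 3.16, 3.27 and 3.34 in GB. GB lay below all other libraries, and INSR fell both in GB vs. CON (log2FC −0.39, adjusted p = 0.0126) and in GB vs. GA (log2FC −0.55, adjusted p = 0.00236, same test). The remaining genes passed in no comparison. Over the 9 libraries IGFBPL1 was at 0.570 to 3.22 FPKM, IGFALS, which holds IGFs and IGFBP3 in a complex in blood, at 0.530 to 1.13, and IGFLR1 at 3.96 to 6.67. The RNA-binding proteins IGF2BP1, IGF2BP2 and IGF2BP3 were at 0.290 to 0.890, 4.37 to 7.85 and 0.340 to 1.30 FPKM. INSRR was under the filter at no more than 0.190 FPKM, and IGFL1 was not analysed here.

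The proteases that cut binding proteins, listed with their inhibitors, fell in most of the genes that could be tested. In GB vs. CON 6 of the 9 tested genes fell and none rose, beside 17.3% of all tested genes that fell, and in GB vs. GA 6 fell and none rose, beside 19.2%. Of the stromal and smooth muscle markers 4 of 9 and 3 of 4 fell in GB vs. CON, and 5 of 9 and 2 of 4 in GB vs. GA. Among the fallers DES was at −0.61, CNN1 at −0.55 and COL3A1 at −0.38 (log2FC in GB vs. CON). By contrast PDGFRA rose in both comparisons (log2FC 0.38 and 0.33). DCN and LUM were at 0.16 and 0.093 in GB vs. CON, which did not pass, and fell in GB vs. GA (−0.24 and −0.15). The part of these markers in the lower protease transcripts was not tested. HTRA1, a secreted serine protease that cuts IGFBP5 among other substrates, was the most abundant, at 770, 776 and 757 FPKM in CON, 695, 699 and 725 in GA and 561, 563 and 558 in GB. Its GB libraries lay close together and below the others (log2FC −0.45 vs. CON, SE 0.033, adjusted p = 8.085e-06, limma). ADAM12, a metalloprotease that cuts IGFBP3 and IGFBP5, was at 101, 92.3 and 95.7 FPKM in CON, 86.4, 90.1 and 93.9 in GA and 51.8, 52.1 and 50.9 in GB. It fell by 46.3% in GB vs. CON (log2FC −0.89, adjusted p = 9.845e-07) and by 42.8% in GB vs. GA (log2FC −0.80, adjusted p = 2.351e-06, same test).

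PLAU, the urokinase plasminogen activator, was at 167, 200 and 182 FPKM in CON, 120, 124 and 144 in GA and 101, 104 and 106 in GB, with no overlap between groups. It fell in all 3 comparisons, with a log2FC of −0.50 in GA vs. CON (adjusted p = 0.0405), −0.81 for GB vs. CON and −0.31 for GB vs. GA (adjusted p = 0.0192, limma). The GA vs. CON call was lost when any 1 library other than GA3 was left out, where the number of pathway genes that passed was 0. It was also 0 with no filter, with no variance trend, in a fit of only the 2 groups, and with the GC content covariate without and with the replicate block. PAPPA, the metalloprotease that cuts IGFBP4, was at 5.52, 5.44 and 5.59 FPKM in CON, 5.31, 4.68 and 4.66 in GA and 4.25, 3.85 and 4.02 in GB. It fell in GB vs. CON (log2FC −0.41, adjusted p = 0.00722), and −0.24 in GB vs. GA did not pass (adjusted p = 0.0684). CTSD and PLAT, a lysosomal protease and the tissue plasminogen activator, fell in both comparisons with GB, and ADAM9 fell in GB vs. GA (log2FC −0.18). STC2, an inhibitor of PAPPA, was at 37.9 to 52.3 FPKM and passed in no comparison, nor did its relative STC1 at 0.550 to 2.37 FPKM. PAPPA2 was at no more than 0.0400 FPKM, and ADAM28 was not analysed here.

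Partners of the system at the cell surface and in sorting gave 1 gene higher and 2 lower of 9 in GB vs. CON, and 1 higher and 3 lower in GB vs. GA, beside 16.2% higher and 17.3% lower, and 9.87% and 19.2%, over all tested genes. M6PR, the cation-dependent mannose 6-phosphate receptor, which shares the sorting of lysosomal enzymes with IGF2R, moved opposite to it. It was at 172, 178 and 184 FPKM in CON, 191, 188 and 180 in GA and 215, 210 and 208 in GB, and rose in GB vs. CON (log2FC 0.25, adjusted p = 0.00174) and in GB vs. GA (log2FC 0.18, adjusted p = 0.0103, limma). LRP1, an endocytic receptor that also binds IGFBP3, fell in both comparisons (log2FC −0.31 and −0.22), as did ITGAV (−0.19 and −0.33), and ITGB1 fell in GB vs. GA (−0.15). CAV1, the caveolin gene, was the most abundant with means of 901, 990.0 and 881 FPKM in CON, GA and GB, and passed in no comparison.

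Downstream of the receptors, adaptors and the PI3K, AKT, FOXO and MTOR genes gave 5 higher and 5 lower of 34 tested in GB vs. CON and 3 higher and 7 lower in GB vs. GA, shares near those of all tested genes (16.2% and 17.3%, then 9.87% and 19.2%). RICTOR, the defining subunit of MTOR complex 2, which phosphorylates AKT, was the list's DEG. It was at 9.46, 9.05 and 9.71 FPKM in CON, 9.81, 9.74 and 9.55 in GA and 24.0, 22.9 and 24.8 in GB, which is 2.54 times the CON mean (log2FC 1.30, SE 0.061, adjusted p = 3.015e-07, limma) and 2.46 times the GA mean. RHEB, the GTPase that activates MTOR complex 1, also rose in both comparisons (log2FC 0.62 and 0.33), as did IRS1, the main adaptor of IGF1R and INSR (0.29 and 0.40). The transcription factors FOXO1 (log2FC −0.44 and −0.51) and FOXO4 (−0.64 and −0.63) fell in both, with the MTOR inhibitor TSC2 (−0.26 and −0.29). EIF4EBP1, a translation repressor, was the most abundant of the list with means of 612, 655 and 547 FPKM in CON, GA and GB, and fell in GB vs. GA (log2FC −0.26, adjusted p = 0.00918, same test).

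In the RAS-MAPK arm 1 gene rose and 7 fell of 19 in GB vs. CON, and 1 rose and 10 fell in GB vs. GA, where 17.3% and 19.2% of all tested genes fell and 16.2% and 9.87% rose. None was a DEG with limma, and 10 and 13 had an unadjusted p under 0.05, beside 5514 and 5029 of all 12578 tested genes. SHC1, the adaptor that links IGF1R to RAS and the most abundant gene of the list, was the riser, at 224, 204 and 235 FPKM in CON, 228, 233 and 226 in GA and 278, 287 and 277 in GB (log2FC 0.35 vs. CON, adjusted p = 9.100e-04, limma). HRAS and NRAS, which encode GTPases of this arm, fell in both comparisons, with log2FC of −0.30 and −0.31 in GB vs. CON. SPRY2, a feedback inhibitor of this arm, fell from 18.5 FPKM in CON and 16.2 in GA to 10.8 in GB (log2FC −0.75 and −0.56). Stromal and smooth muscle markers fell too, 4 of 9 and 3 of 4 in GB vs. CON, and 5 of 9 and 2 of 4 in GB vs. GA. The stromal marker PDGFRA rose in both comparisons. The part of these markers in the lower transcripts of this arm was not tested.

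The growth hormone axis, which drives IGF1 in liver, gave 4 higher and 1 lower of 8 in GB vs. CON and 3 higher and 1 lower in GB vs. GA, beside 16.2% higher and 17.3% lower, and 9.87% and 19.2%, of all tested genes. SOCS1, an inhibitor of JAK kinases that is also an interferon target, was its DEG. It was at 6.70, 6.94 and 5.72 FPKM in CON, 3.98, 5.53 and 2.81 in GA and 27.6, 24.7 and 25.6 in GB (log2FC 1.93 vs. CON, SE 0.19, adjusted p = 5.765e-05, and 2.56 vs. GA, adjusted p = 8.764e-06, limma). GHR, the growth hormone receptor, was at 2.53, 4.47 and 3.62 FPKM in CON, 5.00, 5.22 and 5.37 in GA and 5.31, 5.47 and 4.80 in GB, and rose in GB vs. CON (log2FC 0.52, adjusted p = 0.0350). STAT5A rose in both comparisons (log2FC 0.32 and 0.24) and CISH, a STAT5 target, fell in both (−0.66 and −0.66). JAK2 rose in GB vs. CON (log2FC 0.26, adjusted p = 0.0436) and SOCS3 in GB vs. GA (log2FC 0.24, adjusted p = 0.00999, limma). Growth hormone was not among the treatments, and whether these differences reflect its signalling was not tested. SOCS2, the most abundant gene of the list, was at 51.3 to 76.8 FPKM over the 9 libraries and passed in no comparison.

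As a check of the labels, the interferon-stimulated genes ISG15, MX1, MX2 and RSAD2 were DEGs in both comparisons with GB, and GREB1, a classical estrogen target, was a DEG in both comparisons with CON, although no gene of the table was called in GA vs. CON with the GC content covariate. The progesterone receptor gene PGR had means of 11.4, 15.3 and 23.7 FPKM in CON, GA and GB and was a DEG in GB vs. CON (log2FC 1.03), whereas ESR1, the estrogen receptor gene, was at 6.73 to 9.67 FPKM over the 9 libraries and passed in no comparison.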

How the data were processed

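The deposited values are FPKM per gene and library, which the authors made with RSEM after trimming with fastp, removal of rRNA reads with Bowtie2 and HISAT2 alignment to ARS-UCD1.2, and wrote to 2 decimals, with a column for each library. The sources used here do not name the annotation release. The libraries held 19229181 to 23352703 clean read pairs, and their FPKM summed to 1395622 to 1442723. No scaling was added, and tests ran on log2(FPKM + 0.5). In R 4.3.3 with limma 3.58.1 a mean per group was fitted to the 9 libraries with a variance trend, for genes with a mean of at least 0.5 FPKM, and p-values were adjusted over the 12578 genes. With 3 libraries against 3, an exact permutation test cannot give a p under 0.1. The study's own test was DESeq2 on counts, and it was not repeated on FPKM. The procedure was tried on simulated data with a log2FC of 2 in size planted in 200 genes of GB. In GB vs. CON it called 193 of these genes and 2 others. The planted difference was larger than that of any member, and differences of the members' size were not simulated. Figures were drawn with matplotlib 3.10.9.

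The members, lists and alternatives were chosen with earlier results of these data known. Named genes are the members, DEGs of the lists, the most abundant gene of each list, all related family genes and proteases, the 3 genes most like each DEG among the members, and further genes of the lists that passed the test, which were chosen after their values were seen. The member symbols matched RefSeq for 10 of 10 genes, and the deposited protein IDs for 9 of 10, the exception being IGF1R. Promoter and protein sequences were not analysed here. Some genes counted in the lists are not reported here by name. Tried as alternatives were pseudocounts of 0.1 and 1, a filter at 1 FPKM and none, other scalings, no trend, 2 groups only, the replicate block, library GC content and each library left out.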

Additional observations from a re-analysis of the deposited data

How the results depend on the processing

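The DEG call of IGFBP5 in GB vs. CON held under every alternative but the covariates, where the number of DEGs among the members went from 1 to 0 with library GC content and to 0 with GC content and the replicate block together. The number of members with an adjusted p under 0.05 in limma, a count added after seeing the data, went there from 5 to 3 (IGFBP2, IGFBP3 and IGFBP5 lost, IGFBP6 gained) and to 0. Apart from libraries left out, the alternatives gave a GB vs. CON log2FC of −0.42 to −0.34 for IGF2R and −0.58 to −0.39 for IGFBP4. The range was 0.56 to 1.08 for IGFBP3, −0.56 to −0.40 for IGFBP2 and −1.22 to −0.77 for IGFBP5. In GB vs. GA the number of members that passed went from 3 to 6 in a fit of only the 2 groups compared and to 5 with GC content, and in GA vs. CON from 0 to 1 with TPM, median-of-ratios factors or quantile normalization, the 1 being IGFBP5. With each library left out in turn this count was 2 to 5 in GB vs. GA, with the 5 reached without CON1 or CON2, and the DEG count there was 0 to 1, the 1 being IGFBP3 without GB2. The ratio of the binding protein sum in GB vs. GA moved from 0.896 to 0.914 with TPM. Sign changes were limited to differences that had not passed. IGF2 turned to 1.33 for GA vs. CON and 1.504 for GB vs. CON with GC content and the block, and to 0.059 in GB vs. CON with GC content, and ranged over libraries left out from −0.53 to 0.0032, from −0.52 to 0.16 and from −0.32 to 0.35 in GA vs. CON, GB vs. CON and GB vs. GA. In GA vs. CON, GC content without and with the block gave 0.031 and 0.099 for IGF1R and 0.011 and 0.013 for IGF2R, the 2 together gave 0.15 for IGFBP3, and IGFBP6 ranged from −0.12 to 0.0028 over libraries left out. The cause was not tested.

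Libraries share replicate numbers across groups, but deviations of same-numbered libraries correlated at −0.031 to 0.077 and those of other pairs at −0.068 to 0.056, and 6 of 9 libraries correlated best with one of their own number. The replicate block alone changed no call of a member. It left 1 DEG among the members in GB vs. CON, and over the whole table it moved DEGs from 9 to 5 in GA vs. CON and from 504 to 503 in GB vs. CON, with 458 in GB vs. GA. The 9 DEGs in GA vs. CON became 0 with GC content and 2 with a filter at 1 FPKM, and 3 to 13 with each library left out, and the 504 in GB vs. CON became 328 with GC content and the block. Fold changes of the ligands, at a few FPKM, rest on fewer reads than those of the abundant binding proteins.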
